A study of Mus musculus with 2 samples.

Results

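Fibroblast-like and pericyte-like barcodes were picked from single-cell libraries of subcutaneous CMT167R tumours by marker genes. A barcode was a member when it held no Ptprc transcript (the pan-leukocyte gene), fewer than 3 unique molecular identifiers (UMIs, counted transcripts) over the endothelial genes Pecam1, Cdh5, Cldn5, Gpihbp1 and Kdr, and at least 3 UMIs with 2 or more genes detected over 1 of 2 marker sets. The fibroblast set was Dcn, Lum, Pdgfra and Dpt, and the pericyte set was Rgs5, Higd1b, Kcnj8 and Abcc9. The members were 434 of 13590 kept barcodes, namely 240 of 6380 in the control library and 194 of 7210 in the PKCi library. The fibroblast condition alone held for 225 control and 183 PKCi barcodes, the pericyte condition alone for 11 and 9, and both conditions for 4 and 2.

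Fibroblasts build the interstitial matrix of a tumour from fibrillar collagens, proteoglycans and fibronectin, and in carcinomas they are commonly described in matrix-producing myofibroblastic, cytokine-producing inflammatory and quiescent adventitial states. Pericytes wrap the capillary wall, share a basement membrane with the endothelium, answer endothelial platelet-derived growth factor through the receptor Pdgfrb, and contract. Decorin (Dcn) and lumican (Lum) are small proteoglycans that bind collagen fibrils, Pdgfra is the fibroblast receptor for platelet-derived growth factor A, and dermatopontin (Dpt) is a matrix protein of universal fibroblasts. Rgs5 damps G protein signalling in mural cells, and Kcnj8 and Abcc9 form a potassium channel of pericytes.

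CMT167R is a mouse lung carcinoma line that the labels call resistant to anti-PD1, and 1000000 cells per wild-type C57BL/6 mouse were injected under the skin. The control group received solvent, and the treated group received a compound labelled PKCi at 3 mg/kg each day into the peritoneum. Tumours were taken when those of the control group reached 400 mm3. Each group gave 1 droplet library with 10x 3' chemistry, with 222641855 UMIs in the control and 229219749 in the PKCi library, and the kept barcodes had medians of 33217 and 29763 UMIs. How many mice each library held is not given in the sources used here. With 1 library per treatment no test of treatment was possible, and every interval below is an exact 95% interval that covers counting error only. The libraries shared 20 barcode sequences, none of them a member.

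The fibroblast label did not hold for most of the barcodes that met the fibroblast condition. Krt8, a keratin of simple epithelium, and Rhox5, an X-linked homeobox gene, mark RNA of the injected line. Both were detected in 200 of 225 control barcodes and 156 of 183 PKCi barcodes of the fibroblast condition. Among barcodes with Ptprc, the same pair was found in 356 of 1253 control barcodes (28.4%, median 9492 UMIs) and 471 of 1558 PKCi barcodes (30.2%, median 10832.5 UMIs). That class was set by Ptprc alone and may hold cells of the line or doublets beside leukocytes. Its shares are therefore no rate of free line RNA in leukocytes. Col1a1, the alpha 1 chain of type I collagen and no part of the rule, split the condition with a wide gap. No control barcode lay between 106.7 and 995.0 CPM (UMIs per 1000000 UMIs of the barcode or of a sum of barcodes), and no PKCi barcode between 32.8 and 938.5 CPM. A limit of 300 CPM, set after these values were seen, gave 25 control and 26 PKCi barcodes called Col1a1-high here, and 204 and 159 called Col1a1-low. The shallowest control Col1a1-high barcode held 1005 UMIs, where 1 Col1a1 UMI gives 995.0 CPM and passes the limit. The gap thus depends in part on depth. The barcodes that met both conditions were all Col1a1-high.

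**Figure D1:**
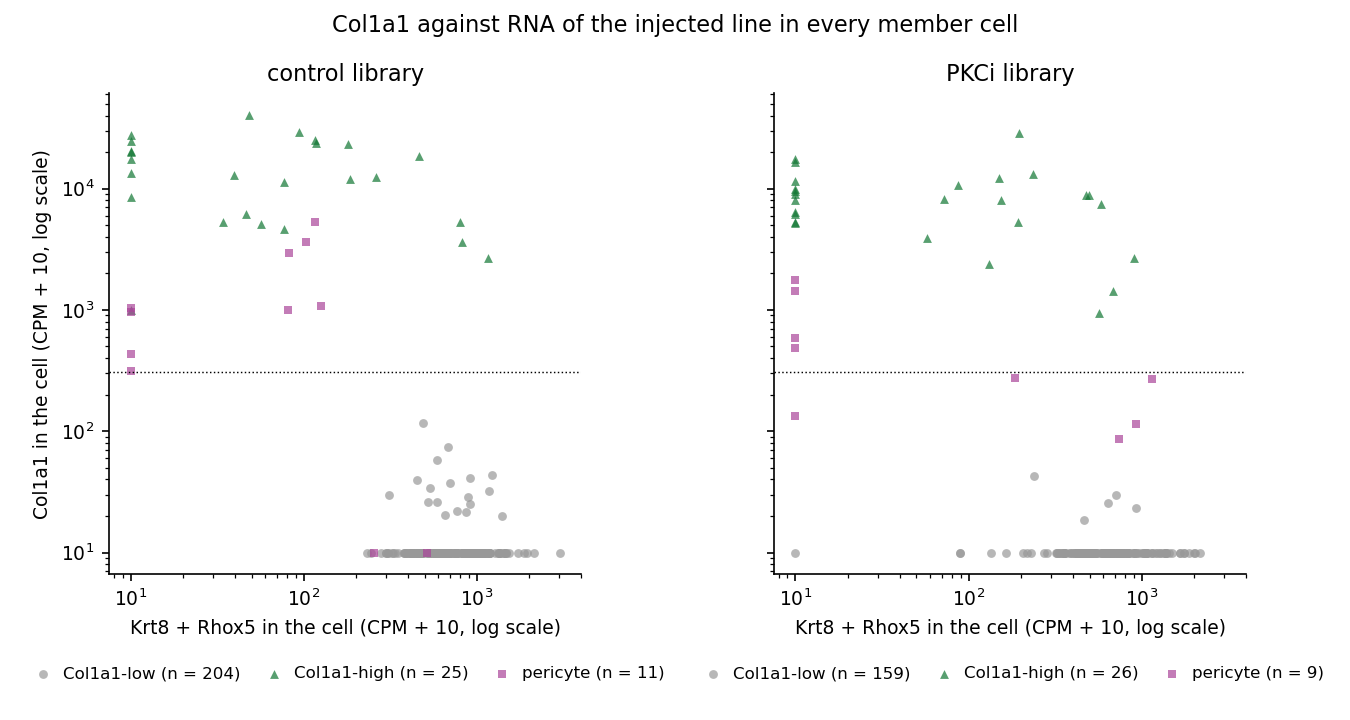
Each point is 1 member, with the level of Krt8 and Rhox5 together on the horizontal axis and that of Col1a1 on the vertical axis, both in CPM with 10 added and on log scales, for the control library (left) and the PKCi library (right). The dotted line is the Col1a1 limit of 300 CPM. Grey circles (Col1a1-low) lie at high Krt8 and Rhox5 with Col1a1 near 0, green triangles (Col1a1-high) lie above the line, and purple squares (pericyte condition) spread over both ranges.

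Most Col1a1-low barcodes carried the marker genes at low counts, together with line RNA. In the other kept barcodes with Krt8 and Rhox5, chosen for these genes, Krt8 stood at 388 (control) and 494 CPM (PKCi). In the Col1a1-low barcodes it stood at 305 CPM in the control and 338 CPM in the PKCi sum. Krt8 and Rhox5 were both present in 196 of 204 (96.1%) and 148 of 159 (93.1%). Xist, the RNA that coats the inactive X chromosome of female cells, was found in 11 of 204 and 7 of 159, against 109 of 4436 (2.46%) and 167 of 4803 (3.48%) of the other barcodes with line RNA. The 4 rule genes together gave a median of 7 UMIs per control barcode and 6 per PKCi barcode, with ranges of 3 to 353 and 3 to 225. The highest control barcode reached 9469 CPM of these genes, above the median of 7566 CPM in control Col1a1-high cells. Postn had 0 UMIs in both sums, and Col1a1 had 24 and 5 UMIs in all. These barcodes are called by their rule here and not by a cell type.

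The Col1a1-high barcodes had higher medians of the fibroblast markers. Their 4 rule genes gave medians of 146 and 91 UMIs per barcode, and their sums held 482575 and 460430 UMIs, with medians of 21460 and 13485 UMIs per barcode. Xist was found in 20 of 25 control and 16 of 26 PKCi barcodes, or 17 of 21 and 12 of 24 after thinning each barcode to 5000 UMIs, which left out 4 and 2 shallower ones. Krt8 with Rhox5 was found in 5 of 25 (20%) and 8 of 26 (30.8%), beside 28.4% and 30.2% of the barcodes with Ptprc. Leukocyte genes (14 listed) summed to 429 CPM in the control and 95.6 CPM in the PKCi sum with 2 and 3 genes at 0, and 12 endothelial genes to 47.7 and 47.8 CPM with 7 at 0 in each. The highest single control barcode reached 13930 CPM of the leukocyte list, against a median of 115 CPM per control barcode. Red cell genes (5 listed) reached 12935 CPM in the highest control barcode, against 41.4 CPM in the control sum. The part of leukocyte and red cell RNA in the results below was not tested.

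Pericyte genes outside the rule were high in the pericyte class of both libraries, with line RNA in some PKCi barcodes. The 25 listed genes of pericyte identity outside the rule summed to 7583 CPM in control and 4631 CPM in PKCi pericytes. They summed to 2112 and 1833 CPM in Col1a1-high cells. The 11 control pericytes held 178698 UMIs (median 13676 per barcode) and the 9 PKCi pericytes 185040 UMIs (median 11403). Lum, Pdgfra and Dpt had 0 UMIs in both sums, but barcodes that also met the fibroblast condition had been left out of this class. Xist was found in 10 of 11 and 7 of 9. Krt8 stood at 22.4 CPM in the control and 443 CPM in the PKCi sum, and Rhox5 at 44.8 and 211 CPM. Without the barcodes that held 10 or more UMIs of these genes together, 11 control and 6 PKCi pericytes remained, and the PKCi sum dropped to 60205 UMIs. Adipocyte genes (7 listed) summed to 1634 and 232 CPM, all of it from Fabp4, and 12 endothelial genes to 442 and 227 CPM with 5 and 7 at 0. The highest single control pericyte reached 4146 CPM of these endothelial genes. That lay above the median of 2941 CPM in control barcodes without Ptprc that passed the endothelial genes of the rule.

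The marker limit had many barcodes at its edge for the fibroblast condition and few for the pericyte condition, which depended more on the endothelial limit. A marker sum of exactly 3 UMIs was held by 43 control and 33 PKCi members of the fibroblast condition, of which 41 and 31 had Krt8 and Rhox5. Just outside, 68 and 66 barcodes had a sum of 2 over 2 genes, and 275 and 233 had 3 or more UMIs of 1 gene only. For the pericyte condition 3 and 1 members had exactly 3 UMIs, and 0 and 1 barcodes had a sum of 2 over 2 genes. The endothelial limit kept 13 control and 15 PKCi barcodes out of the pericyte condition, against 15 and 11 that met it. It kept 3 and 2 out of the fibroblast condition.

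The share of Col1a1-high cells was nearly the same in both libraries, and that of Col1a1-low barcodes was lower in the PKCi library. Col1a1-high cells were 0.392% of the kept control barcodes (0.254% to 0.578%) and 0.361% of the PKCi barcodes (0.236% to 0.528%), a ratio of 0.920 (0.511 to 1.66). After thinning to 5000 UMIs they were 21 and 23 barcodes, a ratio of 1.00 (0.530 to 1.90). Col1a1-low barcodes were 3.20% and 2.21%, a ratio of 0.690 (0.557 to 0.853), and after thinning the ratio was 0.809 (0.532 to 1.23). Leaving out barcodes with Krt8 and Rhox5 left only 8 and 11 of them. Pericytes were 0.172% and 0.125%, a ratio of 0.724 (0.265 to 1.92), so that a difference was not detectable at this depth. Because the rule counts UMIs, shares move with the depth of a barcode, and the Col1a1-low barcodes had medians of 43518 UMIs in the control and 31860 in the PKCi library.

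Pericytes and Col1a1-high cells differed in contractile, mural, inflammatory and adventitial genes in both libraries. A gene was counted as apart when it had at least 20 UMIs over the sums compared, at least 50 CPM in 1 of them, a ratio of at least 2 and intervals that did not overlap, in the same direction in each library. Of 3500 genes measured, 4.11% were higher and 7.83% lower in pericytes on this rule. Of 14 contractile genes measured, 11 were higher in pericytes and none lower, with a median of 1.70 for the smaller log2 ratio of the libraries. Of 15 genes of pericyte identity outside the rule, 10 were higher and 1 (Steap4) was lower.

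Of the mural genes given here, all stood higher in pericytes, and all but Pdgfrb were at or near 0 in Col1a1-high cells. The whole list of 25 pericyte identity genes was not near 0 there. It summed to 2112 CPM in control and 1833 CPM in PKCi Col1a1-high cells, with 9 and 7 genes at 0. Notch3, a receptor of mural cells, stood at 504 CPM in control pericytes against 2.07 CPM in control Col1a1-high cells, and at 340 against 4.34 CPM in the PKCi library. Pdgfrb was at 694 against 126 CPM in the control and 281 against 65.2 CPM in the PKCi library, 5.49- and 4.31-fold higher in pericytes. The endothelin receptor gene Ednrb was at 823 and 643 CPM in pericytes and had 0 UMIs in Col1a1-high cells, at least 132-fold and at least 98.7-fold higher against a floor of 3 counts per sum. Desmin (Des) stood at 700 and 378 CPM against 2.07 and 2.17 CPM, and the adhesion molecule Mcam at 588 and 297 CPM against 0 and 2.17 CPM. In both libraries the pericyte level of each of these genes lay above the whole interval of the other class.

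The contractile genes followed the same split. Smooth muscle actin (Acta2) was at 2837 against 78.7 CPM in the control and 789 against 91.2 CPM in the PKCi library. Transgelin (Tagln) was at 1287 against 49.7 CPM and 757 against 15.2 CPM. Myl9, the regulatory light chain of smooth muscle myosin, was at 476 against 16.6 CPM and 254 against 15.2 CPM, 28.7- and 16.7-fold higher in pericytes. Contractile genes are textbook targets of serum response factor, which binds the CArG box, so promoters were searched for that box on both strands. The search took the 9 of 15 contractile genes that were higher in pericytes than in the whole fibroblast condition, where 9.65% of 3761 genes were higher and 2.29% lower. RefSeq promoter windows of build GRCm38.p6 were matched for 7 of the 9 genes. Of 8 windows of 250 bases upstream of a start, 1 held the box (12.5%), against 482 of 32851 windows of all genes (1.47%). That window was the one of Myl9, shown from its first base to the base before the annotated gene (chr2:156775214-156775419, plus strand), with the box in capitals:

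Myl9: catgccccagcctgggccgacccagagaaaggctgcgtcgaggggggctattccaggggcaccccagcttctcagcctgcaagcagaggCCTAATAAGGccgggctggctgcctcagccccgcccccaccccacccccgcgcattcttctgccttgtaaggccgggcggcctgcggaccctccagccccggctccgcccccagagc

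The match is a description of these letters and says nothing of binding, and a window without the box says only that the letters are not in it. In the opposite direction, 14 of 19 inflammatory genes and 8 of 10 adventitial genes were lower in pericytes than in Col1a1-high cells, and none was higher. Serum amyloid Saa3 had 0 UMIs in pericytes and stood at 8931 CPM in control and 12217 CPM in PKCi Col1a1-high cells, at least 532-fold and at least 754-fold higher there. Complement C3 (1059 and 3286 CPM), the chemokine Cxcl12 (984 and 914 CPM) and the adventitial peptidase inhibitor Pi16 (644 and 1101 CPM) also had 0 UMIs in pericytes. Col1a1 was present in both, at 1679 and 303 CPM in pericytes and 16518 and 7189 CPM in Col1a1-high cells. The basement membrane collagen Col4a1 went the other way, at 3800 and 1443 CPM in pericytes against 296 and 500 CPM.

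**Figure D2:**
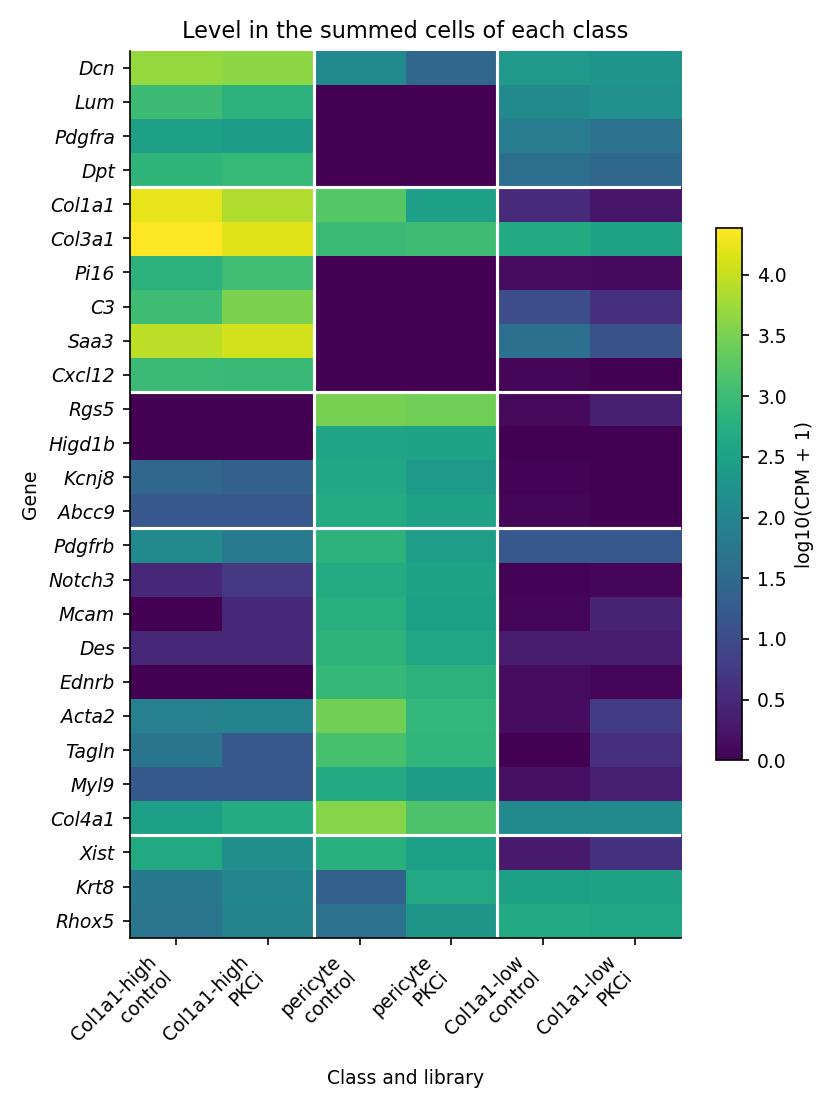
Rows are genes and columns are the classes in each library. Colour gives log10(CPM + 1) of the summed barcodes. From top to bottom the blocks are the fibroblast rule genes, further fibroblast genes, the pericyte rule genes, further mural genes, and Xist with the line genes Krt8 and Rhox5. Rgs5 to Col4a1 are high in both pericyte columns, Saa3, C3, Cxcl12 and Pi16 are at 0 there, and Krt8 reaches 443 CPM in the PKCi pericyte column against 22.4 CPM in the control.

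Within Col1a1-high cells the PKCi library had lower levels of most myofibroblastic genes and of 7 of 13 collagens, and higher levels of most type I interferon genes and of some inflammatory and adventitial genes. Of 3693 genes measured, 3.52% were at least 2-fold higher and 9.5% at least 2-fold lower in the PKCi sum, with a median log2 ratio of 0.01 over all of them. Of 10 myofibroblastic genes measured, 8 were lower and none higher, with a median log2 ratio of -1.75. Of 13 fibrillar and associated collagens, 7 were lower and none higher, with a median of -1.02. Of 6 type I interferon genes, 5 were higher and none lower, with a median of 2.14.

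**Figure D3:**
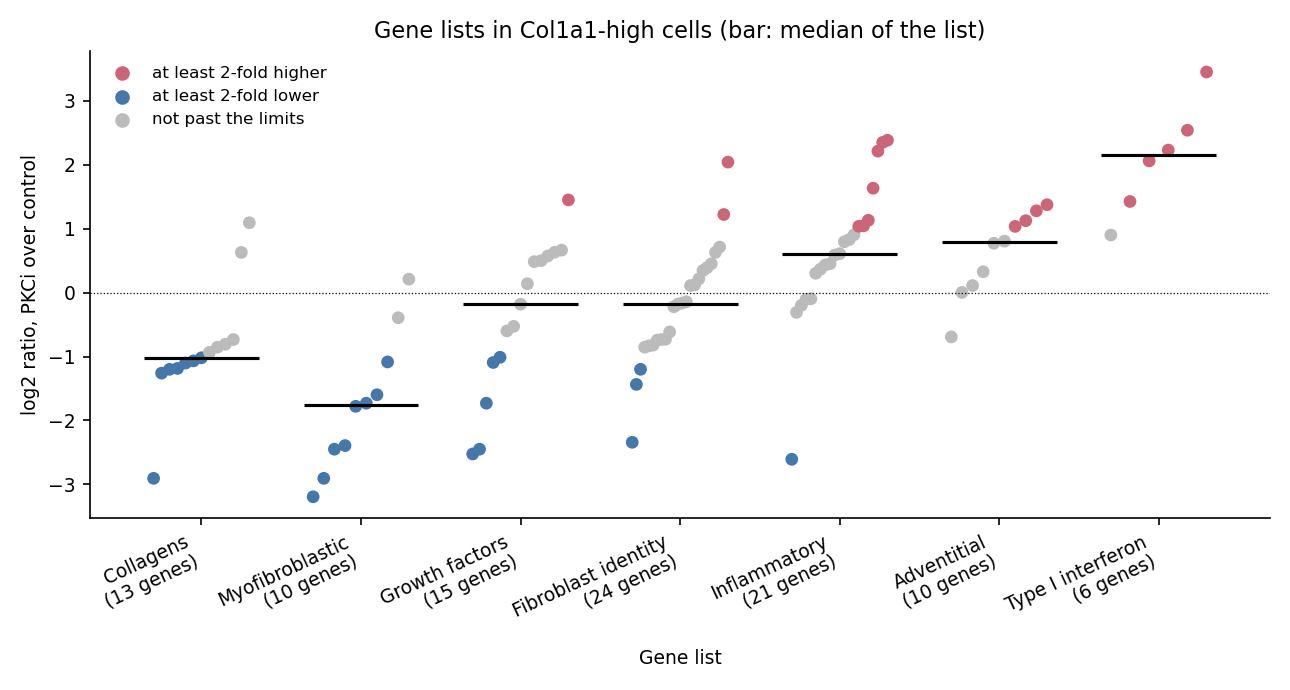
Each point is 1 gene of a list in Col1a1-high cells, with the log2 ratio of the PKCi over the control sum on the vertical axis, sorted within each list, and the bar is the median of the list. Collagen (median -1.02) and myofibroblastic genes (-1.75) lie mostly below 0, and inflammatory (0.61), adventitial (0.79) and type I interferon genes (2.14) mostly above.

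Among matrix genes, Col1a1 stood at 16518 CPM in the control and 7189 CPM in the PKCi sum, 2.30-fold lower (2.21 to 2.39). Col1a2, the second chain of type I collagen, was at 17434 and 9645 CPM and Col3a1 at 24210 and 14560 CPM, both less than 2-fold apart. Per cell, the 14 collagen genes of the list summed to 2985 to 136710 CPM in the control (median 54156) and 3095 to 89739 CPM in the PKCi library (median 40459), so the libraries overlapped almost throughout. Of the 7 collagens called, Col12a1, a fibril-associated collagen, was furthest apart, at 1015 and 135 CPM, 7.54-fold lower (5.78 to 9.99). Leaving out the Col1a1-high cells with Krt8 and Rhox5, where 4.79% of 3861 genes were higher and 9.27% lower, moved the median of the collagens to -0.57 and ended the call of Col1a1 (log2 ratio -0.66), while that of Col12a1 held at -2.65. With each cell weighted equally the median was -0.49, and Col12a1 was the 1 collagen still called lower.

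The myofibroblastic genes were further apart than the collagens. Periostin (Postn), a matricellular protein, was at 2354 CPM in the control and 447 CPM in the PKCi sum, 5.26-fold lower (4.53 to 6.13), with 20 cells holding it in each. After thinning to 5000 UMIs, 19 of 21 control and 14 of 24 PKCi cells had a Postn UMI, and 13 of 21 and 7 of 24 had a Col12a1 UMI. Lrrc15, a surface protein of myofibroblastic tumour fibroblasts, was at 168 and 17.4 CPM, 9.66-fold lower (4.68 to 23.1), and was found in 7 and 2 cells. Tenascin C (Tnc) was at 1797 and 593 CPM, with 63.4% of the PKCi UMIs from 1 cell, and the secreted protein Spon1 at 487 and 141 CPM. Cthrc1, a collagen triple helix repeat protein, was at 692 and 326 CPM, 2.12-fold lower (1.75 to 2.59). Acta2 was at 78.7 and 91.2 CPM, from 5 cells of each library, and was called higher (log2 ratio 2.76) once the cells with Krt8 and Rhox5 were left out. With each cell weighted equally, 5 of the 10 myofibroblastic genes were called lower (Postn, Tnc, Lrrc15, Inhba and Col12a1). Of 10 contractile genes measured in all, 1 (Smtn) was lower and none higher.

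Of 15 growth factor ligands, 5 were lower in the PKCi sum (Fgf7, Igf1, Tgfb1, Tgfb2 and Inhba) and 1 higher (Vegfd), with a median of -0.18. With each cell weighted equally Tgfb2 and Inhba were still called lower. Tgfb2 was at 230 CPM in the control and 39.1 CPM in the PKCi sum, 5.88-fold lower (3.56 to 10.3), and Tgfb1 at 74.6 and 21.7 CPM. Inhba, which encodes the activin A subunit, was at 278 and 49.95 CPM, but 66.4% and 78.3% of its UMIs came from 1 cell. Insulin-like growth factor Igf1 was at 599 and 280 CPM, and the lymphatic growth factor Vegfd at 72.5 and 200 CPM. Of 18 receptors, 4 were lower (Tgfbr1, Tgfbr3, Igf1r and Osmr) and 1 higher (Nrp2), and with equal weights Tgfbr1 alone was called. The type I receptor Tgfbr1 was at 298 and 52.1 CPM. Of 8 WNT and BMP modulators, 5 were lower, among them the WNT antagonists Sfrp1 (174 and 58.6 CPM) and Sfrp2 (775 and 311 CPM), and 1 was higher, Sfrp4 (174 and 400 CPM). Without the cells holding Krt8 and Rhox5, Igf1, Fgf7, Sfrp1 and Sfrp2 were no longer 2-fold apart.

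Interferon-response genes are switched on by type I interferon in most cell types. Isg15, a ubiquitin-like protein, was at 47.7 CPM in the control and 202 CPM in the PKCi sum, 4.24-fold higher (2.66 to 7.01), and was found in 7 and 15 cells. Ifit1 was at 6.22 and 78.2 CPM, 12.6-fold higher (3.97 to 63.8), in 3 and 9 cells. Irf7, the regulator of type I interferon genes, was at 18.6 and 91.2 CPM, and the membrane protein Bst2 at 174 and 469 CPM, in 17 and 25 cells. Per cell, the list summed to 233 to 3631 CPM in the control (median 1202) and 261 to 12712 CPM in the PKCi library (median 2761). The ranges overlapped, and 9 of 26 PKCi cells lay above every control cell. After thinning, 5 of 21 control and 10 of 24 PKCi cells had an Isg15 UMI. Of 8 MHC class I genes, 1 (H2-Q7) was higher and none lower, with a median of 0.69.

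**Figure D4:**
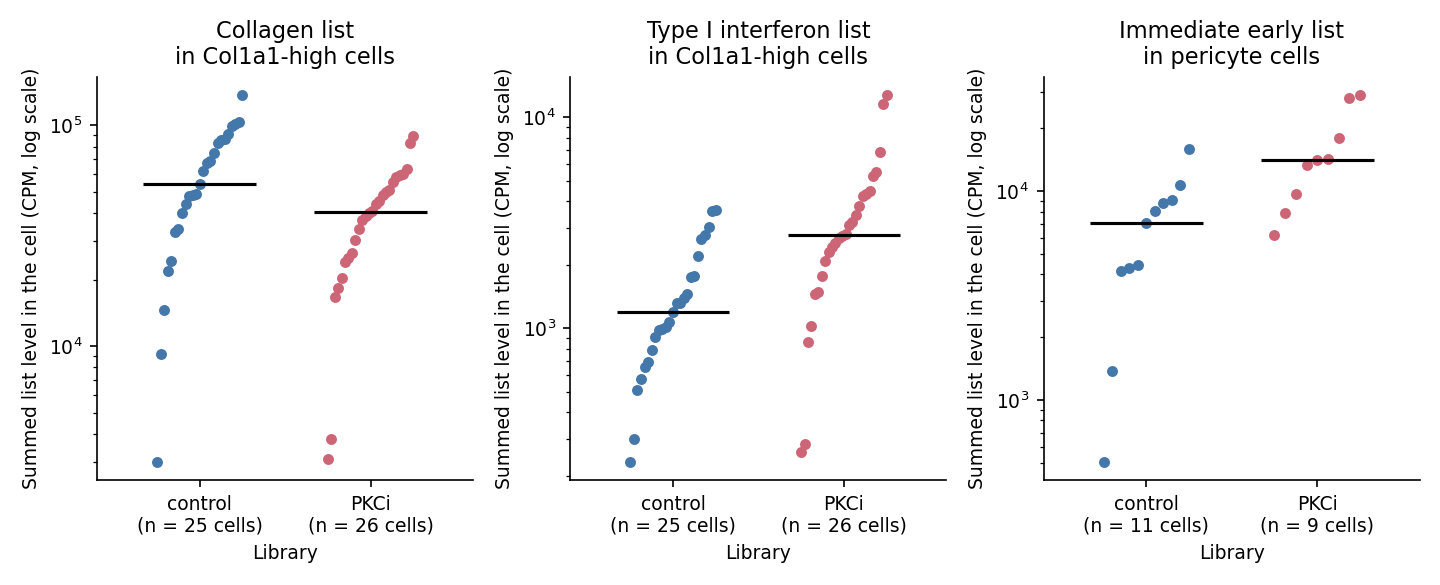
Each point is 1 cell and the bar is the median of the cells of a library. The vertical axes give the summed level of the gene list in the cell in CPM, on log scales, for collagens and type I interferon genes in Col1a1-high cells and immediate early genes in pericytes. Medians are 54156 and 40459 CPM, 1202 and 2761 CPM, and 7093 and 14077 CPM for control and PKCi, and the ranges of the libraries overlap in each panel.

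Of 21 inflammatory genes, 7 were higher in the PKCi sum of Col1a1-high cells (Cxcl10, Cxcl14, Ccl19, C3, C4b, Lcn2 and Ptgs2) and 1 was lower (Lif). C3 was at 1059 and 3286 CPM, 3.103-fold higher (2.81 to 3.44), in 22 and 25 cells, and C4b, another complement component, at 419 and 864 CPM. The interferon-inducible T cell chemokine Cxcl10 was at 85.0 and 397 CPM, 4.68-fold higher (3.32 to 6.73), with 51.4% of the PKCi UMIs from 1 cell. The chemokine Cxcl14 was at 82.9 and 437 CPM, and Ccl19, a ligand of Ccr7, at 29.0 and 152 CPM. Lif was at 85.0 and 13.03 CPM, with 80.5% of the control UMIs from 1 cell. Of the 21 genes, 16 had positive and 5 negative log2 ratios, with a median of 0.61. Per cell, the 23 listed genes summed to 1774 to 56154 CPM in the control (median 10099). In the PKCi library they summed to 1369 to 70281 CPM (median 23654), so the ranges overlapped. Il6 was at 421 and 393 CPM, Cxcl12 at 984 and 914 CPM, and Saa3, the most abundant gene of the list, at 8931 and 12217 CPM, 1.37-fold higher.

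Of 10 adventitial genes, 4 were higher (Ly6c1, Ly6a, Cd55 and Anxa3) and none lower, and with each cell weighted equally Ly6c1 and Cd55 were called. Ly6c1 was at 298 CPM in the control and 775 CPM in the PKCi sum, 2.60-fold higher (2.14 to 3.18), and after thinning 12 of 21 and 22 of 24 cells held it. Ly6a, also called Sca-1, was at 831 and 1814 CPM, and Pi16 at 644 and 1101 CPM, short of 2-fold. Of 24 genes of fibroblast identity outside the rule, 2 were higher, the actin-severing Gsn (541 and 2228 CPM) and the plasminogen-binding Clec3b (261 and 610 CPM), and 3 lower, Col1a1, Mfap4 and Twist2. Mfap4, of elastic fibres, was at 247 and 47.8 CPM. The rule genes differed by less, with Dcn at 4917 and 4331 CPM and Dpt at 742 and 847 CPM. Of 14 metallothionein and hypoxia genes, 6 were higher and none lower, with a median of 0.95 and metallothionein Mt1 at 2184 and 4706 CPM. With each cell weighted equally that median was 0.22 and 1 gene (Pfkp) was called, and the summed list had per-cell medians of 5724 and 7502 CPM. Of 19 immediate early genes none was called in either direction.

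Other genes with wide ratios were mostly lower in the PKCi sum. The B cell chemokine Cxcl13 was at 29.0 and 636 CPM, 21.9-fold higher (12.9 to 40.6), from 2 control and 9 PKCi cells, with 47.8% of the PKCi UMIs from 1 cell. The latent TGF-beta binding protein Ltbp4 was at 6.22 and 71.7 CPM, the BMP antagonist Chrdl1 at 12.4 and 102 CPM, and the cell cycle inhibitor Cdkn1a at 18.6 and 113 CPM. In the other direction, Dok6, an adaptor of receptor kinases, was at 89.1 CPM and had 0 UMIs in the PKCi sum, at least 13.7-fold lower. The phospholipase Plcb1 was at 421 and 21.7 CPM, the phosphodiesterase Pde7b at 332 and 17.4 CPM, the kinesin Kif26b at 247 and 10.9 CPM and the retinoic acid binding protein Crabp1 at 338 and 19.5 CPM. Prkca and Xiap, a PKC isoform and the apoptosis inhibitor in the title of the series, were within 2-fold at 131 and 95.6 CPM and at 64.2 and 52.1 CPM.

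Pericytes of the PKCi library had higher levels of a few chemokine and immediate early genes, and lower sums of many matrix and contractile genes. The medians of the matrix and contractile lists were smaller in size once pericytes with line RNA were left out. Of 3442 genes measured, 4.76% were higher and 6.16% lower in the PKCi sum, with a median log2 ratio of -0.05. Of 9 inflammatory genes, 5 were higher (Cxcl2, Cxcl9, Cxcl10, Ccl2 and Ccl11) and 1 lower (Il6), with a median of 1.28. Of 16 immediate early genes, 3 were higher and none lower, with a median of 0.58. The summed level of the immediate early list was also higher in the PKCi library outside the pericytes, as given below.

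Cxcl10 stood at 33.6 CPM in control pericytes and 1194 CPM in PKCi pericytes, 35.6-fold higher (16.1 to 98.0), from 2 and 5 cells, with 62.9% of the PKCi UMIs from 1 cell. Cxcl9, another interferon-inducible chemokine, was at 39.2 and 513 CPM, of which 98.9% came from 1 PKCi cell. The eosinophil chemokine Ccl11 had 0 UMIs in the control and 135 CPM in 3 PKCi cells, at least 8.05-fold higher. These 3 chemokines were also higher without the cells holding line RNA, with log2 ratios of 6.00, 5.37 and 6.61, whereas Ccl2 turned to -0.77 and Il6 to 0.28. Cxcl2 turned from 1.28 to -0.66 without the pericytes of 10 or more Krt8 and Rhox5 UMIs. The interferon genes Isg15 (83.9 and 259 CPM) and Ifit1 (5.596 and 151 CPM) took 83.3% and 85.7% of their PKCi UMIs from 1 cell. Without the cells holding Krt8 and Rhox5, 1539 genes were measured, of which 3.96% were higher and 1.82% lower, and none of the 3 interferon genes among them was called.

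The immediate early genes, mostly of transcription factors and induced within minutes of a stimulus or of tissue dissociation, were summed per cell. On that sum 8 of 9 PKCi pericytes lay above the control median. Jun was at 1035 CPM in the control and 2124 CPM in the PKCi sum, 2.05-fold higher (1.72 to 2.46), and Fos at 1069 and 2005 CPM, 1.88-fold higher. Klf2, a flow-responsive factor, was at 246 and 854 CPM and Klf6 at 252 and 573 CPM. Per cell, the list summed to 506 to 15905 CPM in the control (median 7093) and 6189 to 28875 CPM in the PKCi library (median 14077). The ranges overlapped. Without the cells holding Krt8 and Rhox5 the median of the list was 1.06 with 9 genes higher, and the time between tissue removal and capture was not tested. The higher level was not limited to pericytes, whose summed list stood at 7986 and 12586.5 CPM. It stood at 5163 and 10829 CPM in an endothelial class and 7957 and 11138.5 CPM in barcodes with Ptprc. Col1a1-low barcodes had 6156 and 10759 CPM, other barcodes with line RNA 6309 and 8177 CPM, and Col1a1-high cells 12052 and 14267 CPM.

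Many matrix and contractile genes of pericytes were lower in the PKCi sum, and the medians of their lists lay closer to 0 once cells with line RNA were left out. Col4a1 was at 3800 and 1443 CPM, 2.63-fold lower (2.28 to 3.05), and its log2 ratio was -0.10 without the cells holding Krt8 and Rhox5. Pdgfrb was at 694 and 281 CPM, 2.47-fold lower, and -0.15 without them. Acta2 was at 2837 and 789 CPM, 3.60-fold lower (2.99 to 4.35), -0.91 without them and 0.032 with each cell weighted equally. Of 13 basement membrane genes 6 were lower, of 17 contractile genes 6, of 11 collagens 7 and of 20 genes of pericyte identity 4, with medians of -0.99, -0.94, -1.38 and -0.73. Without the cells holding Krt8 and Rhox5 these medians were -0.24, -0.29, -0.34 and 0.093. That removal left 9 control and 5 PKCi pericytes with 116192 and 48802 UMIs, and the parts of line RNA and depth were not tested. Of 16 contractile genes still measured there, 12 had negative ratios, with Tpm1 and Flna called lower and Synpo2 higher, and 8 of 11 collagens had negative ratios. Col1a1 kept its call there, at 1679 and 303 CPM in all pericytes and a log2 ratio of -1.14 without them, whereas Col3a1, at 974 and 1070 CPM in all pericytes, was called higher without them, with a log2 ratio of 1.03.

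**Figure D5:**
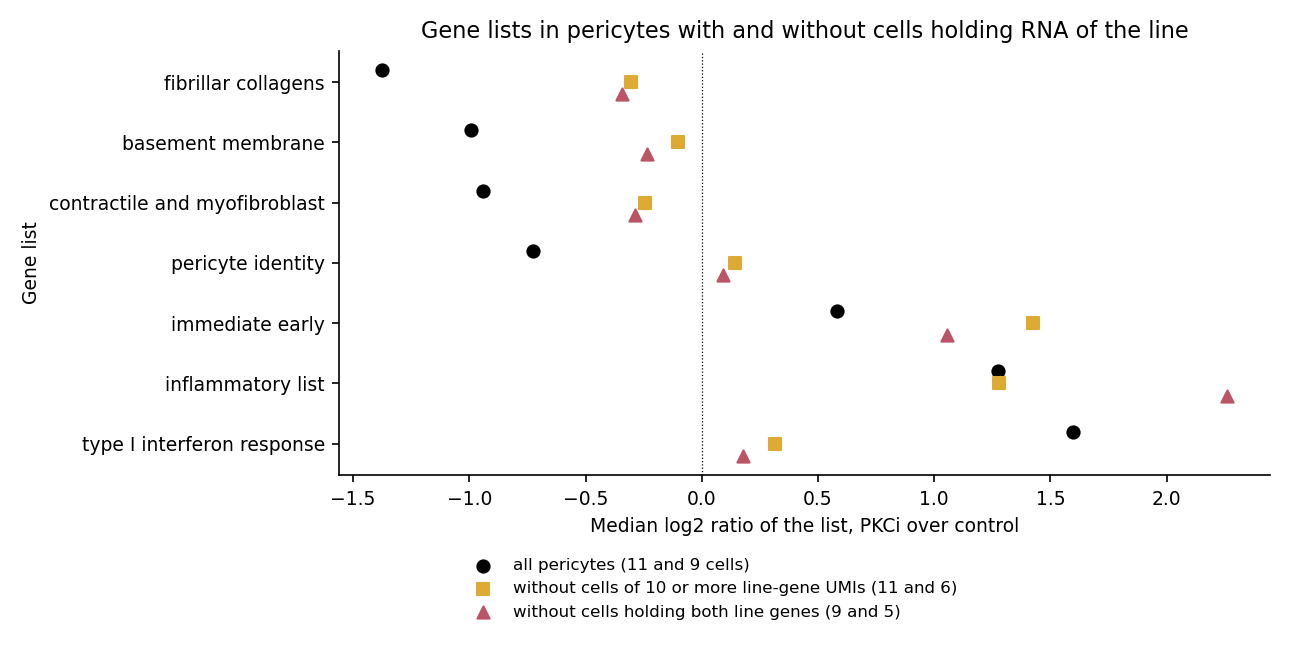
The horizontal axis gives the median log2 ratio of PKCi over control for each gene list in pericytes. Black circles take all pericytes, yellow squares leave out cells with 10 or more UMIs of Krt8 and Rhox5, and red triangles leave out cells holding both genes. The medians of the collagen, basement membrane, contractile and pericyte identity lists move from -1.38, -0.99, -0.94 and -0.73 to between -0.34 and 0.14, and the immediate early and inflammatory lists stay above 0.5.

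Further genes of PKCi pericytes split along the same line. Fabp4, a fatty acid carrier, was at 1634 and 232 CPM, 7.03-fold lower (5.09 to 9.93), and was lower in each alternative that left out line RNA. Its relative Fabp5 was at 1399 and 124 CPM, and the matrix proteins Ecm1 and Fbln2 at 487 and 10.8 CPM and at 218 and 0 CPM. On the higher side, the chromatin protein Hmga2 was at 11.2 and 367 CPM and the serine synthesis enzyme Phgdh at 11.2 and 195 CPM, both too rare to be measured without the cells holding line RNA. Dusp2, a phosphatase of MAP kinases, was at 89.5 and 503 CPM, and its log2 ratio was 2.98 without those cells.

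The Col1a1-low barcodes differed little between libraries apart from stress, chemokine and protease genes. Of 3558 genes measured, 0.534% were higher and 0.59% lower in the PKCi sum, with a median log2 ratio of -0.08. Of 14 immediate early genes, 5 were higher (Fos, Fosb, Junb, Atf3 and Zfp36) and none lower, with a median of 0.87. Fos was at 596 and 1454 CPM, 2.44-fold higher (2.36 to 2.52), and at 477 and 838 CPM in the other barcodes with line RNA. Cxcl10 was at 51.3 and 242 CPM, 4.70-fold higher (4.25 to 5.21), in 93 of 204 and 103 of 159 barcodes, and at 49.3 and 91.9 CPM in the other barcodes with line RNA. Of 7 collagens none was called, with a median of 0.15.

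A few genes of the Col1a1-low barcodes were near 0 in the other barcodes with line RNA. The stromal protease Mmp3 was at 279 CPM in the control and 18.3 CPM in the PKCi sum, 15.2-fold lower (12.6 to 18.6), from 58 and 13 barcodes, against 3.11 and 1.75 CPM in the other barcodes with line RNA. Crabp1 was at 66.6 and 5.89 CPM, from 40 and 8 barcodes, against 1.17 and 0.71 CPM. The redox protein gene Prxl2a was at 74.9 and 12.3 CPM, from 38 and 8 barcodes, against 0.63 and 0.62 CPM. Mmp3, Crabp1 and Prxl2a were thus carried by a minority of these barcodes in each library. Col1a1-high cells held more Mmp3, at 1318 and 960 CPM, and more Crabp1, at 338 and 19.5 CPM. Haem oxygenase Hmox1, by contrast, was at 101 and 16.02 CPM and also differed in the other barcodes with line RNA, at 38.9 and 9.97 CPM.

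Against the other barcodes with line RNA, the Col1a1-low barcodes had higher levels of a short list of genes in both libraries. Of 3341 genes measured, 0.599% were higher and 0% lower. Col3a1 was at 478 against 111 CPM in the control and 337 against 98.5 CPM in the PKCi library, 4.29- and 3.43-fold higher. The monocyte chemokine Ccl7 was at 268 against 24.5 CPM and 92.1 against 20.3 CPM, and the growth factor pleiotrophin (Ptn), the axon guidance cue Sema3a, Col5a2, Ptgs2 and fibronectin (Fn1) were also higher. Krt8 and Rhox5, for which the other barcodes were chosen, were lower in Col1a1-low barcodes in both libraries and not called. Their median was -0.26 for the smaller log2 ratio of the libraries. Of the rule genes that chose the control Col1a1-low barcodes, Pdgfra was found in 173 of 204, Dcn in 129, Lum in 126 and Dpt in 87. Of the 4436 other control barcodes with line RNA, which had not met the rule, 1337 held Pdgfra, 158 Dcn, 125 Lum and 61 Dpt. The rule itself set these counts apart, so they only describe it. Dcn and Lum lie 46.985 kilobases apart on chromosome 10 of GRCm38, and a link of their positions to these counts was not tested.

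Taken as a single class, the fibroblast condition showed mainly its Col1a1-low majority. Those barcodes gave 96.1% of its control UMIs and 93.7% of its PKCi UMIs. Of 3599 genes measured, 0.806% were higher and 0.5% lower in the PKCi sum. Several of the genes called came from Col1a1-high cells, such as Postn (103 and 29.3 CPM), Tnc (85.1 and 22.4 CPM) and C3 (47.8 and 228 CPM). Against this class, 16 of 16 genes of pericyte identity were higher in pericytes in both libraries, where 9.65% of 3761 genes were higher. Against Col1a1-high cells, 10 of 15 were higher and 1 (Steap4) lower, where 4.11% of 3500 genes were higher and 7.83% lower.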

How the data were processed

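The deposited matrices hold UMI counts, which come from Cell Ranger 7.0.0 per the file headers, and the submitters' processing notes name build GRCm38. Barcodes with at least 500 genes and at most 20% mitochondrial UMIs were kept (6380 of 6688 control and 7210 of 7457 PKCi barcodes). Scrublet (scanpy 1.11.5) called 111 and 132 doublets, which stayed in. Counts were summed per class and library and scaled to CPM with Python 3.11.15, numpy 2.4.6, scipy 1.17.1 and pandas 2.3.3. Intervals are exact Poisson for levels, conditional binomial for ratios and Clopper-Pearson for shares. UMIs from free RNA count like any other. Log2 ratios add 0.5 count to each sum. A gene was called at 20 or more UMIs, 50 or more CPM in 1 library, a ratio of 2 or more and intervals apart. The calls were tested on simulated Poisson counts drawn from the sums of Col1a1-high cells and pericytes. That simulation held no differences between cells, so it cannot show how such differences affect the calls.

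The members and the 38 gene lists were chosen with earlier results of these data known. Beside list members, the 10 highest and 10 lowest called ratios of a comparison (15 between classes) with at most 50% of UMIs from 1 cell and at least 5 cells could be named. The Col1a1 split and the removal of members with 10 or more Krt8 and Rhox5 UMIs were chosen after seeing the data. Gene positions are from GENCODE on GRCm38 and promoters from RefSeq GRCm38.p6.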

Additional observations from a re-analysis of the deposited data

Results flagged for a closer look

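In 3 genes the classes differed in opposite directions between the libraries, and the difference between classes was not tested. Timp3, an inhibitor of metalloproteinases, had a log2 ratio of PKCi over control of 1.39 in Col1a1-high cells and -2.78 in pericytes. Hes1, a target of Notch signalling, had -1.15 in pericytes and 1.40 in Col1a1-low barcodes. Igfbp7, a secreted protein of vessel walls, had -1.01 in pericytes and 1.09 in Col1a1-low barcodes. Without the pericytes holding Krt8 and Rhox5, the pericyte values were 0.29, 0.89 and 0.067.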

How the results depend on the processing

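No paired analysis was possible because each treatment had 1 library. Of the gene ratios recomputed under the alternatives, 1851 stayed close to their first value, 288 moved and 26 changed sign. The cause of these changes was not tested, except that settings which leave out members or lower the minimum change how many cells and genes are counted. Without members holding Krt8 and Rhox5, the log2 ratio of shares went from -0.47 to -0.068 for the fibroblast condition and from -0.53 to 0.26 for Col1a1-low barcodes. Depth limited the pericytes most, whose 11 and 9 cells gave under 20 UMIs for many genes in the smaller sums.

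Genes higher and lower in the fibroblast condition (29 and 18) were 47 and 33 at a marker sum of 5, 176 and 264 without members holding Krt8 and Rhox5, 110 and 151 among members with Xist, and 304 and 329 with no minimum. For Col1a1-low barcodes the genes higher (19) were 119, 101 and 207 without Krt8 and Rhox5, with Xist and with no minimum, and those lower (21) were 80, 150 and 287, 40 at a marker sum of 5 and 13 when centred. For pericytes the genes higher (164) were 61 without Krt8 and Rhox5, 81 without members of 10 or more such UMIs, 102 without the deepest cell and 82 at 50 UMIs, and those lower (212) were 28, 55, 111 and 126, and 131 with cells weighted equally. For Col1a1-high cells the genes lower (351) were 209 with cells weighted equally. Between pericytes and the fibroblast condition, genes higher (363) were 123 without Krt8 and Rhox5, 169 with Xist and 640 with no minimum, and those lower (86) were 171, 138 and, without members of 10 or more such UMIs, 174. Between pericytes and Col1a1-high cells, genes higher (144) were 69 at 50 UMIs. Among lists with at least 5 genes measured, those with a median of 0.5 or more in size were 2 in the fibroblast condition and 4, 13, 7, 4 and 12 at a marker sum of 5, without Krt8 and Rhox5, with Xist, with equal weights and with no minimum. In pericytes they were 15, and 2 and 7 under the removals of line RNA.

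Without pericytes holding Krt8 and Rhox5, log2 ratios changed sign for Ccl2 (1.80 to -0.77), Il6 (-1.33 to 0.28), Isg15 (1.595 to -0.0023), Cspg4 (-1.45 to 0.28), Timp3 (-2.78 to 0.29), Hes1 (-1.15 to 0.89), Igfbp7 (-1.01 to 0.067), Krt8 (4.15 to -0.33) and Rhox5 (2.17 to -2.21), and the median of pericyte identity went from -0.73 to 0.093. Without pericytes of 10 or more such UMIs, the values were -0.45 for Ccl2, -0.66 for Cxcl2 (from 1.28), 0.10 for Mylk (from -1.04), 0.065 for Hes1, 0.17 for Igfbp7, -0.015 for Krt8, -0.93 for Rhox5 and 0.14 for pericyte identity. Isg15 was -0.80 among pericytes with Xist, and Acta2 went from -1.84 to 0.032 with equal weights. Without Krt8 and Rhox5, Prxl2a was 0.34 in the fibroblast condition (from -2.62) and 0.062 in Col1a1-low barcodes (from -2.60), Dkk2 was 1.18 in the fibroblast condition (from -1.93) and Cxcl10 was -0.65 in Col1a1-low barcodes (from 2.23). Among members with Xist, Slc22a23 was 1.12 in the fibroblast condition (from -1.66) and 0.95 in Col1a1-low barcodes (from -1.70), and Hmox1 was 1.78 (from -1.65) and 1.31 (from -2.66).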
